A study of Mus musculus with 22 samples.

Results

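The clustered protocadherin genes lie in tandem on mouse chromosome 18 as the Pcdha, Pcdhb and Pcdhg arrays, and the level of the histone mark H3K27me3 across them was compared between Jarid2 conditional knockout (cKO) and control retinas. The members were all deposited peaks on chromosome 18 that overlapped 36.90 to 37.85 Mb (mm10), whatever gene they were assigned to. There were 12 such peaks among 19034, and 11 of the 12 passed the filter on low counts.

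Clustered protocadherins are homophilic cell adhesion proteins of neurons. In the Pcdha and Pcdhg arrays each gene has its own promoter and variable first exon, which is spliced to constant exons shared by the array, whereas Pcdhb genes have no shared constant exons. Most promoters are chosen stochastically in single neurons, with CTCF, cohesin and DNA methylation taking part in the choice, while the C-type genes at the far end of Pcdha and Pcdhg are expressed more uniformly. In the retina the Pcdhg genes are needed for dendrite self-avoidance of starburst amacrine cells. H3K27me3 is laid down by Polycomb repressive complex 2 (PRC2) on silent genes, and Jarid2 is an accessory subunit of PRC2.

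H3K27me3 was mapped by CUT&RUN, in which a nuclease guided by an antibody cuts out the marked chromatin, in retinas of C57BL/6 mice at embryonic day 18.5. The 5 cKO animals were Jarid2 fl/fl; Rx-cre. Of the 5 controls, replicates 2, 4 and 5 were Jarid2 fl/+ and replicate 3 was Jarid2 fl/fl, all without Cre, and replicate 1 was Jarid2 fl/+; Rx-cre. The protocol text names the driver as the inducible Rax-CreERT2, Rax being a gene of retinal progenitors, and pregnant females received tamoxifen at 75 μg per g of body weight on E10.5. It also gives the controls as Jarid2 fl/fl, which the sample labels do for 1 of the 5. H3K27me3 counts do not show whether Jarid2 was deleted in a given animal. Batch 1 held replicates 1 and 2 of each group and both sexes (cKO replicate 1 and control replicate 2 were female), and batch 2 held replicates 3 to 5, all male. Both retinas of an animal were pooled, so each value is an average over all retinal cells, and fewer cells with the mark cannot be told apart from less mark per cell.

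Reads in peaks ran from 1688368 to 2864080 per animal. Levels are given as CPM, the depth-normalised read count with TMM factors, and as CPM per kb of peak where peaks are compared with each other. As a check of the tissue, 0 of 6 genes that every cell uses had a promoter peak, against 9 of 10 regulators of other lineages such as Myod1, Gata4 and T. Of 13 retinal genes 8 had one, among them Pou4f2 and Isl1, and the defining eye field genes Rax, Six3 and Six6 had none. Of 7 lens, 5 pigment epithelium and 7 endothelium and blood genes, 4, 2 and 1 had a promoter peak, and the summed levels of these lists ran from 1425 to 2014, 898.5 to 966.5 and 5.39 to 7.41 CPM in controls and from 1545 to 1872, 816 to 862 and 4.42 to 8.99 CPM in cKO. This mark shows silent genes, so it cannot show how many cells of those types were present.

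Peaks were called at the C-type genes and not over most of the locus. A single peak set was deposited for both genotypes, and the libraries it was called on are not given in the sources, so the presence of a peak cannot be compared between genotypes. RefSeq lists 58 genes in the arrays, and the start of 8 lay inside a peak. All 5 C-type starts did (Pcdhac1, Pcdhac2, Pcdhgc3, Pcdhgc4 and Pcdhgc5), against 3 of the other 53 (Pcdhga1, Pcdhga10 and Pcdhgb7). Of 17273 coding genes in the RefSeq promoter table (GRCm38.p6, which does not hold chromosome 18), 15.9% had a start inside a peak.

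By array, Pcdha (36930285 to 37188897) held 2 peaks, which covered 8.75% of its span. Pcdhb (37264998 to 37521419) held 0 peaks over its 22 genes, the nearest peak to a Pcdhb start being 48.0 kb away. Pcdhg (37661775 to 37841873) held 7 peaks, which covered 12.6% of its span, 2 further peaks lay between Pcdha and Pcdhb, and 1 lay between Pcdhb and Pcdhg. The peak-free stretch around the Pcdhb array was 428.6 kb long, and 6.75% of the 19014 gaps between neighbouring peaks of a chromosome were at least as long, the median gap being 31.4 kb. The stretch before Pcdhac1, which contained the starts of Pcdha1 to Pcdha12, was 270.6 kb long, and 11.8% of gaps were at least as long. A stretch without a peak says only that no peak was called there, since reads outside peaks are not in the deposited table. The variable exons of an array resemble each other in sequence, and the handling of reads with several possible positions is not given in the sources, so counts over them are uncertain.

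**Figure D1:**
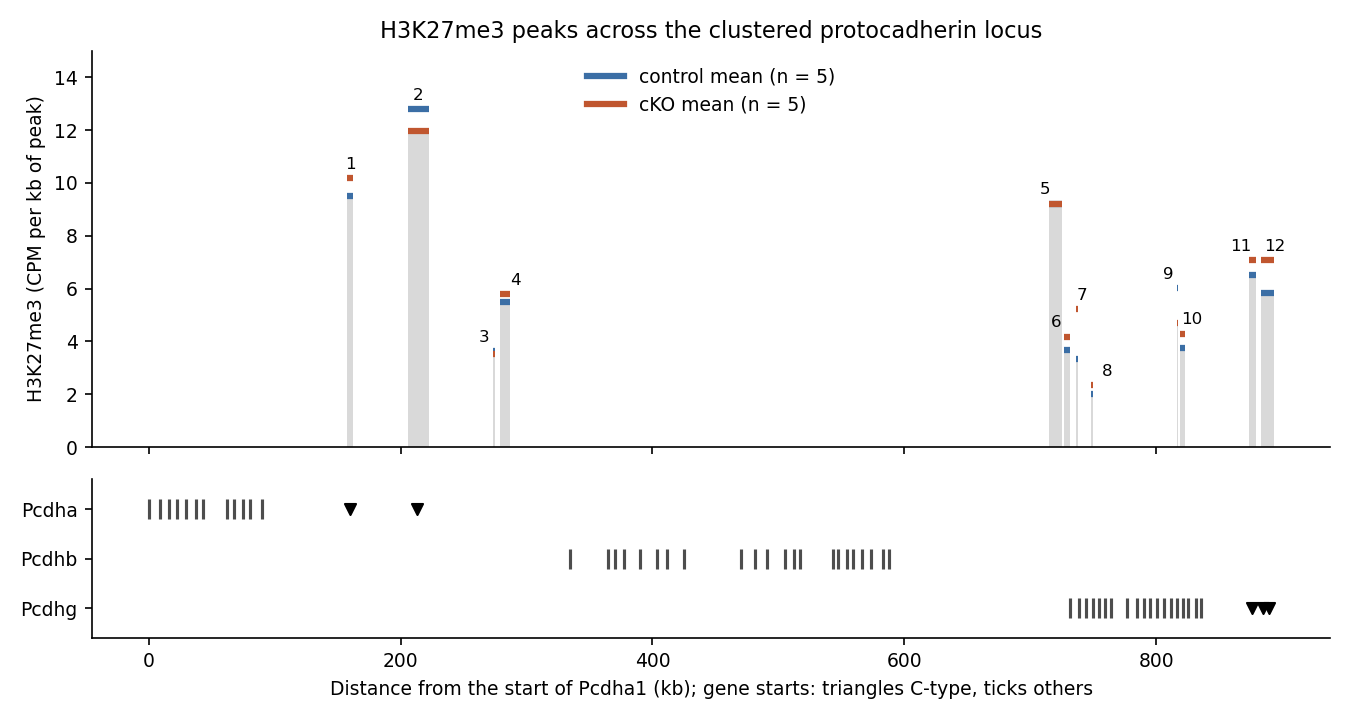
Upper panel: mean H3K27me3 in CPM per kb at the 12 peaks, numbered by position, in controls (blue) and cKO (orange), against the distance from the start of Pcdha1 in kb. Lower panel: starts of the 58 genes, with the C-type genes as triangles. All 5 triangles lie under a peak, and the 22 Pcdhb starts lie in the stretch without peaks.

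The 4 peaks over C-type starts held 66.1% of the CPM of the 12 peaks. Their control means were 12.8 CPM per kb for the Pcdhac2 peak, 9.52 for Pcdhac1, 6.52 for Pcdhgc3 and 5.84 for the peak over Pcdhgc4 and Pcdhgc5. The other 8 peaks ran from 2.02 to 9.20 CPM per kb, with a median of 3.72. Across the 12 peaks the median was 5.67 CPM per kb, close to the median of 5.13 for all 19034 peaks and under that of 6.86 for the 7188 promoter peaks of coding genes. The Pcdhac2 peak was the widest at 17.3 kb, and 96.7% of all peaks were narrower.

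The cKO and control animals were compared at each peak for an effect of Jarid2 loss on the mark. Of the 11 tested members, edgeR's quasi-likelihood test called 0 lower and 0 higher (adjusted over all 16307 tested peaks, threshold 0.05). Of all tested peaks it called 8.84%, with 7.38% lower (1204) and 1.46% higher (238). With the total of reads in peaks in place of TMM factors the split over all peaks was 1021 lower and 461 higher. At an unadjusted p under 0.05 there were 2 of the 11 members, with 21.5% of all tested peaks. Limma-voom called 0 of 11, with 2 at an unadjusted p under 0.05, and the counts over all 16307 peaks were 1440 and 3670. DESeq2 called 0 of the 8 to which it gave an adjusted p, with 0 at an unadjusted p under 0.05. Among all 19034 peaks DESeq2 called 797, with 1806 at an unadjusted p under 0.05. The 11 log2 fold changes ran from -0.44 to 0.66 with a median of 0.10, and 7 were positive, against a median of 0.022 over all tested peaks.

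The 2 peaks of the Pcdha array lay at its 2 C-type genes, and neither was called different in cKO. Pcdhac1 encodes a protein that needs other clustered protocadherins to reach the cell surface. Its promoter peak (37087500 to 37092830) held 49.4, 46.8, 50.3, 50.6 and 56.6 CPM in control replicates 1 to 5. The values in cKO replicates 1 to 5 were 56.6, 41.8, 66.2, 56.6 and 50.4 CPM, which overlapped the controls. The means were 50.7 ± 3.61 and 54.3 ± 9.01 CPM (SD, n = 5 each), and the log2 fold change was 0.10 ± 0.10 (SE; 95% interval -0.099 to 0.31, edgeR adjusted p = 0.603).

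Pcdhac2 is needed for the tiling of serotonergic axons. Its promoter peak (37135880 to 37153180) held 207, 214, 245, 237 and 203 CPM in control replicates 1 to 5. In cKO replicates 1 to 5 it held 208, 186, 212, 204 and 225 CPM. All 5 cKO animals were below the control mean of their batch, but the groups overlapped. The means were 221 ± 18.8 and 207 ± 14.1 CPM (SD, n = 5 each), with a log2 fold change of -0.095 ± 0.067 (95% interval -0.23 to 0.044, edgeR adjusted p = 0.460). As a fold the interval ran from 0.851 to 1.03.

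The 2 peaks between Pcdha and Pcdhb were annotated as intronic and assigned to Gm10544, a noncoding transcript whose start lies 25308 and 30838 bp away. The wider one (37209360 to 37216990) held 42.5, 41.8, 40.2, 43.2 and 42.2 CPM in control replicates 1 to 5 and 53.4, 44.7, 41.9, 42.9 and 37.8 CPM in the cKO replicates. The controls lay close together, and the cKO animals of batch 1 lay above and those of batch 2 around them. Its log2 fold change was 0.061 ± 0.091 (95% interval -0.13 to 0.25, edgeR adjusted p = 0.781). The narrow one (37203830 to 37205450) had only 9 to 18 reads per animal. It held 6.42, 7.49, 3.59, 3.89 and 8.09 CPM in the controls and 7.93, 6.46, 5.18, 4.86 and 4.20 CPM in cKO, with wide overlap. Its 95% interval, -0.50 to 0.47 on the log2 scale, was too wide to detect a difference of that size at this depth (edgeR adjusted p = 0.986).

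The peak between Pcdhb and Pcdhg (37645590 to 37655920) was annotated as the promoter of the lincRNA gene 3222401L13Rik. It was the densest peak without a C-type start. It held 88.4, 86.1, 107, 94.9 and 98.8 CPM in control replicates 1 to 5 and 98.9, 101.4, 90.9, 101.7 and 83.0 CPM in the cKO replicates. The cKO animals were above the controls in batch 1, and the groups overlapped in batch 2. The means were 95.1 ± 8.38 and 95.2 ± 8.06 CPM (SD, n = 5 each), with a log2 fold change of -0.007 ± 0.079 (95% interval -0.17 to 0.16, edgeR adjusted p = 0.978). The test of a difference in genotype effect between batches gave an unadjusted p of 0.043 here, and none of the 11 tested members passed it after adjustment (edgeR, adjusted p = 1.0 for each). Of all tested peaks 0.0123% passed that test after adjustment, and 3.94% had an unadjusted p under 0.05, as 1 of the 11 members did.

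**Figure D2:**
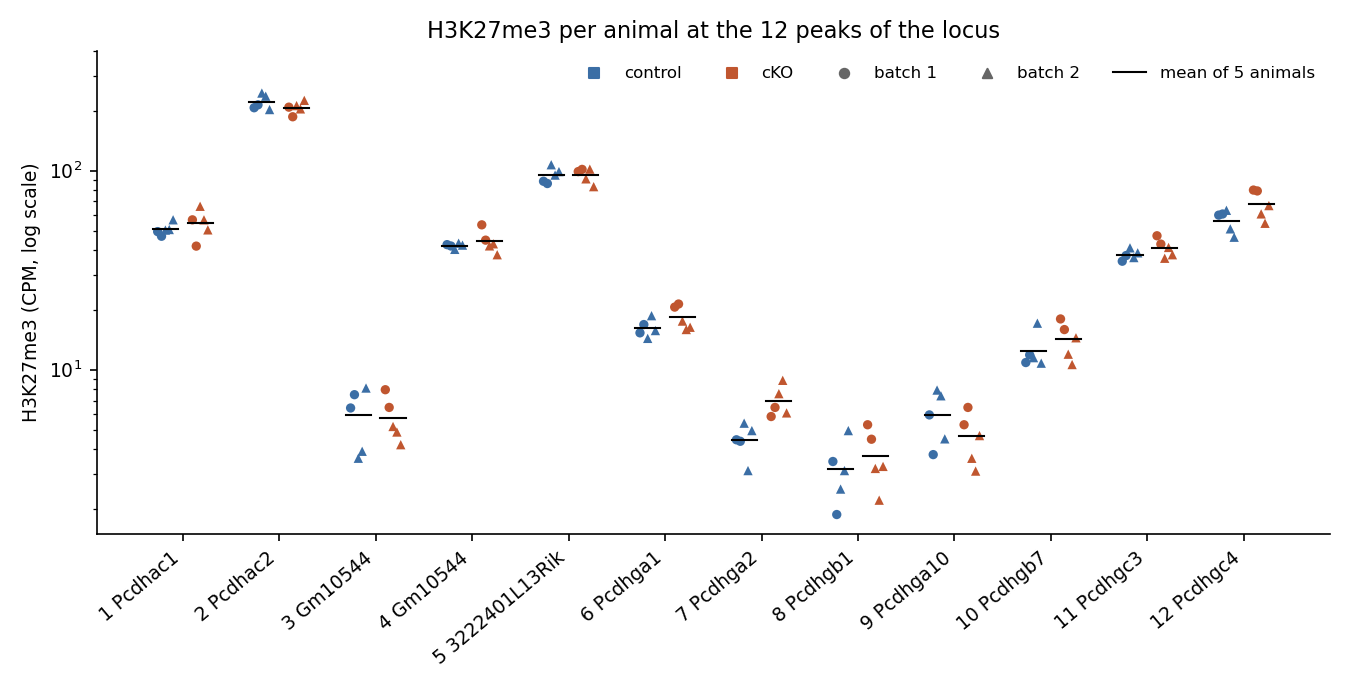
H3K27me3 in CPM (log scale) in each animal at the 12 peaks, in controls (blue) and cKO (orange), with batch 1 as circles, batch 2 as triangles and bars at the mean of 5 animals. The groups overlap at 11 peaks, and at the Pcdhga2 peak the 5 cKO animals, 5.82 to 8.84 CPM, lie above the controls, 3.11 to 5.39 CPM.

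In the Pcdhg array the 2 peaks with the smallest p were both higher in cKO by their estimates, but neither passed after adjustment. Pcdhgc4 is needed for neuron survival and postnatal viability. The peak over the starts of Pcdhgc4 and Pcdhgc5 (37813880 to 37823500) held 59.8, 60.5, 63.2, 51.0 and 46.3 CPM in control replicates 1 to 5. In cKO replicates 1 to 5 it held 79.8, 79.0, 60.6, 54.4 and 66.7 CPM, and all 5 were above the control mean of their batch. The groups were apart in batch 1 and overlapped in batch 2. The means were 56.1 ± 7.18 and 68.1 ± 11.2 CPM (SD, n = 5 each), with a log2 fold change of 0.26 ± 0.093 (95% interval 0.067 to 0.45, edgeR unadjusted p = 0.0108, adjusted p = 0.0920). It passed with the total of reads in peaks in place of TMM factors (log2 fold change 0.31, adjusted p = 0.0378) and without control replicate 3 (0.35, adjusted p = 0.0145). Over 22 alternative fits the adjusted p ran up to 0.560, in batch 2 alone.

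The narrow peak assigned to Pcdhga2 (37666920 to 37668250), 677 bp before the RefSeq start of that gene, held 4.44, 4.37, 5.39, 3.11 and 4.94 CPM in control replicates 1 to 5. In cKO replicates 1 to 5 it held 5.82, 6.46, 7.58, 8.84 and 6.07 CPM. It was the only tested member at which all cKO animals lay above all controls, which held for 1.78% of all tested peaks. The means were 4.45 ± 0.853 and 6.95 ± 1.25 CPM (SD, n = 5 each), and the log2 fold change was 0.66 ± 0.21 (95% interval 0.21 to 1.10, edgeR unadjusted p = 0.0108, adjusted p = 0.0921). These values rest on 7 to 20 reads per animal. In 20 alternative fits with an adjusted p it ran from 0.0634 to 0.696, and DESeq2 gave none.

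Pcdhgc3, which promotes dendrite branching of cortical neurons, had a promoter peak (37803880 to 37809670) with 35.1, 37.4, 40.9, 36.6 and 38.6 CPM in control replicates 1 to 5. In cKO replicates 1 to 5 it held 47.1, 42.7, 36.3, 41.1 and 37.8 CPM. The cKO animals of batch 1 were the highest of the 10, and those of batch 2 overlapped the controls, with cKO replicate 4 just above the highest control. Its log2 fold change was 0.11 ± 0.094 (95% interval -0.091 to 0.30, edgeR adjusted p = 0.618).

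The other 4 peaks of the Pcdhg array lay at genes of the stochastically chosen type. Their control means were 16.2 CPM (Pcdhga1), 12.4 (Pcdhgb7), 5.89 (Pcdhga10) and 3.18 (Pcdhgb1), and animals of both groups overlapped at each. The log2 fold changes were 0.17 for Pcdhga1, 0.15 for Pcdhgb7 and -0.44 for Pcdhga10, with edgeR adjusted p of 0.566, 0.685 and 0.340. The Pcdhgb1 peak held 3 to 11 reads per animal and was the member that the filter removed.

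**Figure D3:**
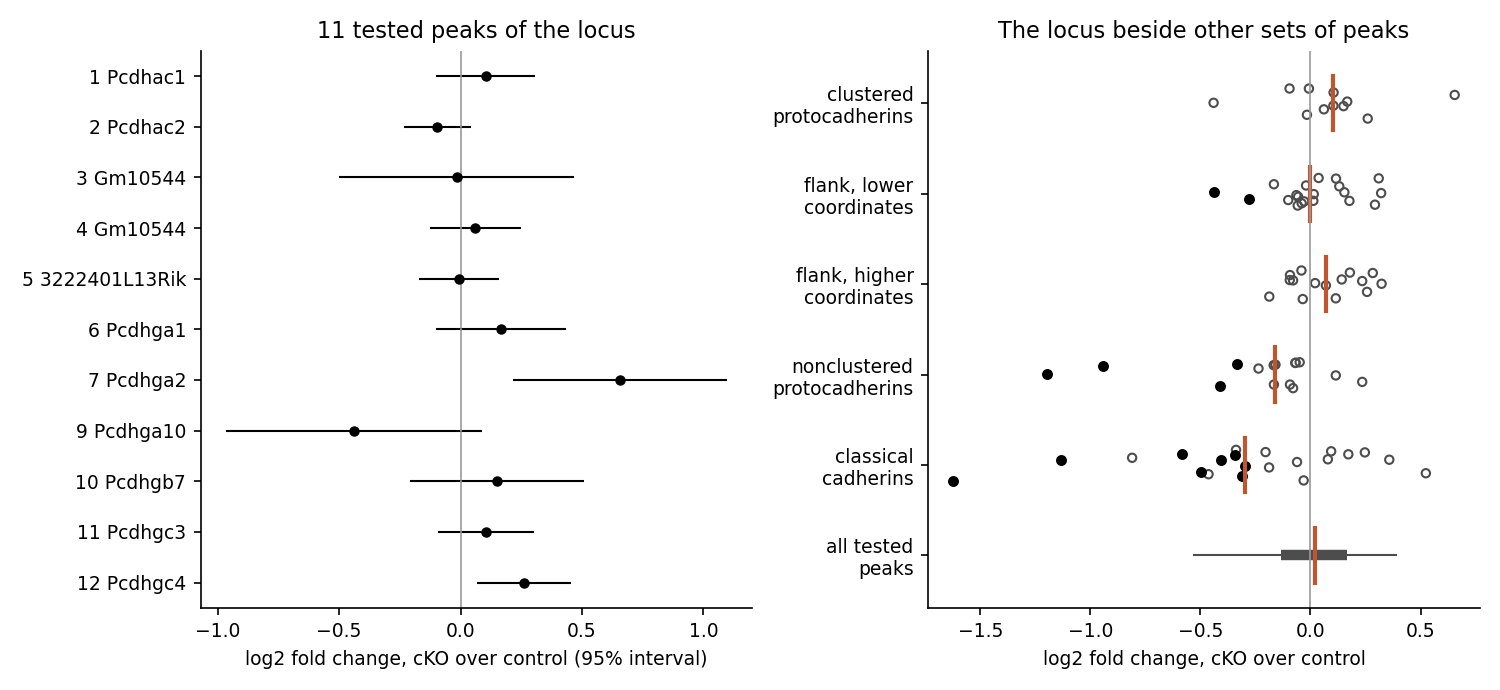
Left: log2 fold change of cKO over control with its 95% interval at the 11 tested peaks. Right: log2 fold changes of the tested peaks of the locus, its flanks, nonclustered protocadherins and classical cadherins, with called peaks filled and medians in orange, above all 16307 tested peaks (thin line 5th to 95th percentile, thick line quartiles). Filled are 0 of 11 points of the locus, 4 of 15 of nonclustered protocadherins and 8 of 21 of classical cadherins. Of all tested peaks 8.84% were called, and no difference between the sets was tested.

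Summed over the 12 peaks, H3K27me3 was 528 to 592 CPM in controls and 546 to 607 CPM in cKO. The means were 551 ± 27.5 and 564 ± 24.8 CPM (SD, n = 5 each), a log2 ratio of 0.034 as the mean of the within-batch differences weighted by the number of animals, with no test of this or the sums below. The 2 Pcdha peaks summed to 272 ± 18.1 CPM in controls and 262 ± 20.1 CPM in cKO (log2 ratio -0.056). The 7 Pcdhg peaks summed to 136 ± 7.11 and 157 ± 20.96 CPM (log2 ratio 0.20).

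The Pcdhg sums differed in size between batches. In batch 1 they were 135 and 137 CPM in controls and 182 and 176 CPM in cKO, a log2 ratio of 0.40. In batch 2 they were 146, 137 and 126 CPM in controls and 141, 136 and 149 CPM in cKO, a log2 ratio of 0.063, with overlap. The difference between these ratios was not tested. Of the 11 tested members, 7 had both cKO animals above both controls in batch 1 and 1 had all cKO animals above all controls in batch 2, shares that were 26.5% and 8.73% over all tested peaks. Both cKO animals below both controls in batch 1 was seen at 0 of the 11 members and 25% of all tested peaks. Per the protocol text batch 1 came from a single litter and batch 2 from male littermates, so batch and litter cannot be told apart as the source of this difference. Batch 1 held both sexes in each group, with 135 CPM in the control male and 176 CPM in the cKO male. The control female held 137 CPM and the cKO female 182 CPM. Control genotypes also differed, as the control with Cre was in batch 1 and the Jarid2 fl/fl control in batch 2. An effect of sex or control genotype on these sums was not tested.

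**Figure D4:**
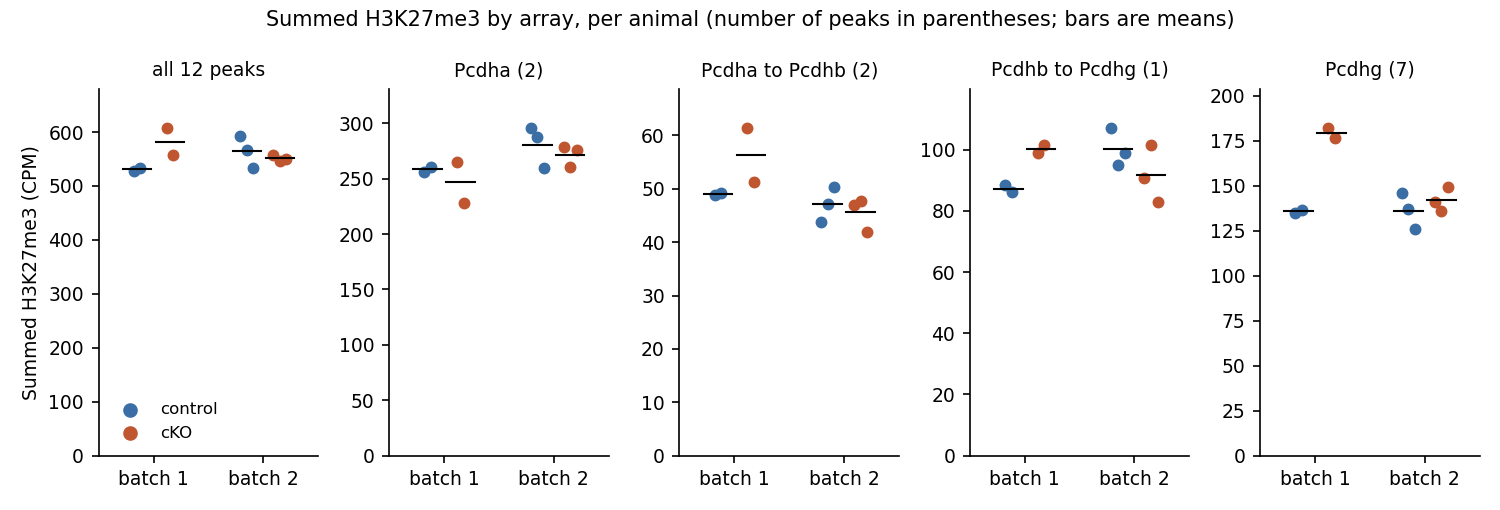
Summed H3K27me3 in CPM per animal for all 12 peaks and for each array or interval, by batch, in controls (blue) and cKO (orange), with bars at the mean. In the Pcdhg panel the cKO animals of batch 1, at 182 and 176 CPM, stand above all others, and the groups of batch 2 overlap.

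The surrounding chromosome and related adhesion genes were compared as descriptions. Among 20 tested peaks in the 950 kb before the window, 2 were called lower in cKO and 0 higher, with a median log2 fold change of -0.003. The 2 were promoter peaks of Nrg2, a neuregulin gene (-0.28 ± 0.070, edgeR adjusted p = 0.0126), and of Hbegf, a heparin-binding growth factor gene (-0.44 ± 0.12, adjusted p = 0.0288). Among 15 in the 950 kb after the window 0 were called, with a median of 0.070. The peak with the smallest p there was the promoter peak of Pcdh1, a nonclustered protocadherin, with 0.24 ± 0.079 (adjusted p = 0.0683).

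Nonclustered protocadherins are encoded by single genes with their own promoters. Of 12 listed, 11 had a peak annotated as promoter, with a median of 8.38 CPM per kb over their 16 peaks in controls. This count is not comparable with those of starts inside a peak given above, which use another measure. Of 15 tested peaks, 4 were called lower and 0 higher, and the median log2 fold change was -0.16. The Pcdh7 promoter peak (chromosome 5, 57718620 to 57723160) fell from 71.9 ± 20.3 to 31.3 ± 12.9 CPM (SD, n = 5 each; log2 fold change -1.20 ± 0.14, edgeR adjusted p = 9.93e-06). An intronic Pcdh9 peak had -0.94 ± 0.15 (adjusted p = 0.000285) and the Pcdh10 promoter peak -0.41 ± 0.092 (adjusted p = 0.0049). The fourth, named after its value was seen, was the Pcdh19 promoter peak at -0.33 (adjusted p = 0.00568). At each of the first 3, 5 of 5 cKO animals were below the control mean of their batch.

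Of 21 tested peaks of classical cadherins 8 were called lower and 0 higher, with a median of -0.30, and 3 peaks of Cdh8 had the smallest p, with -1.62 ± 0.22, -1.14 ± 0.13 and -0.41 ± 0.076. Of 8 tested peaks of Celsr and Fat cadherins 1 was called, an intergenic peak assigned to Fat4 (-0.53 ± 0.13, edgeR adjusted p = 0.0102). Of 20 regulators and partners of clustered protocadherins 8 had peaks, and of their 10 tested peaks 0 were called, the smallest p being that of a Ptk2b promoter peak (0.20 ± 0.10, adjusted p = 0.254). No difference between these sets and the clustered protocadherins was tested.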

How the data were processed

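The authors deposited 1 table with raw counts (called reads here) over a common peak set in 16 H3K27me3 libraries. Data of 6 IgG libraries were not used here. The submitters' processing notes name mm10, MACS2, SAMtools, DESeq2 1.38.1 and Novoalign 4.02.02 and give no roles. Peak-calling settings, the counter and the treatment of duplicate reads are not given in the sources. Further deposited columns hold p-values, a test score, a log2 fold change with its error and a mean normalised signal, and their header names no contrast. Over 7785 peaks of at least 20 CPM that fold change had a Pearson r of -0.963 with batch 2 minus batch 1 and of 0.51 with cKO minus control, so none of those columns was used.

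Technical duplicates of batch 2 agree within sampling noise and were summed: their chi-square divided by its degrees of freedom was 0.881 to 0.997 in 6 pairs, against 1.05 to 2.53 in 8 pairs of animals of a group and batch. filterByExpr left 16307 peaks, and edgeR 4.0.16 in R 4.3.3 was run with batch as a term and Benjamini-Hochberg adjustment over all of them. Standard errors are the log2 fold change divided by the square root of F, and intervals use the t quantile of the test's degrees of freedom. The steps were also run on simulated counts with a fixed spread between animals and no batch difference. That run does not show how the test performs on these data. Limma 3.58.1 and DESeq2 1.42.0 were alternatives, beside other scalings, no filter, no batch term, a replicate block, sex, single batches, single duplicates, other thresholds and leaving out each animal. CPM uses TMM-scaled library sizes, and sums got no test.

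Arrays were assigned by the spans of RefSeq genes (GRCm38.p6, the assembly of mm10), taking the lower coordinate as the start because the table gives no strand. Values per animal are given, by rule, for called members, the 2 members per array or interval with most reads and the 2 with the smallest p, and the widest, and for up to 3 peaks of each comparison list. The members and lists were chosen with earlier results of these data known. No sequence of the locus is printed.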

Additional observations from a re-analysis of the deposited data

Results flagged for a closer look

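In controls, the Pcdhgb7 peak of control replicate 4 held 17.1 CPM, while the other 4 control animals held 10.8 to 11.9 CPM, and its distance from the nearest of them was 0.831 of the group's range. In cKO, the sum over the 12 peaks was 607 CPM in cKO replicate 1 against 546 to 557 CPM in the other 4 animals, 0.822 of the range. Both exceed the limit of 0.71 that applies to 5 samples. Chance flags about 1 group in 20, and 34 groups were checked. The groups span 2 batches, and cKO replicate 1 is from batch 1 and control replicate 4 from batch 2.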

How the results depend on the processing

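The count of members lower in cKO was 0 under each alternative run. The count higher was 1 with the total of reads in peaks, where 461 of all 16307 tested peaks were called higher. It was 2 at an adjusted p under 0.1, a threshold for which the share of all peaks is not given here. When each animal was left out it was 0 to 1. The 1 was without control replicate 3, where 134 of all 16117 tested peaks were called higher. The other alternatives gave 0 members higher. Over all tested peaks, 1442 were called, 364 without a batch term, 0 in batch 1 alone (edgeR, 1827 at an unadjusted p under 0.05), 797 with DESeq2 and 1088 to 1615 when each animal was left out. Of 173 refits of the 8 peaks described per animal, 155 kept their direction and side of the threshold. The 16 that changed sign were at peaks whose interval spans 0. These were the narrow Gm10544 peak (0.030 with the total, 0.003 without a batch term, 0.059 in batch 1 and 0.034 with limma-voom, -0.127 to 0.187 leaving out animals), the wide one (-0.042 in batch 2), the 3222401L13Rik peak (0.037 with the total, 0.199 in batch 1, 0.085 with the second duplicate, -0.041 to 0.041 leaving out animals) and the Pcdhgc3 peak (-0.027 in batch 2). The cause was not tested.

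In batch 1 and batch 2 alone the log2 ratios of sums were 0.133 and -0.044 for the window, 0.199 and -0.140 between Pcdhb and Pcdhg, and 0.401 and 0.051 for Pcdhg, and between Pcdha and Pcdhb batch 1 gave 0.191. Leaving out animals gave 0.002 to 0.060, -0.027 to 0.046, 0.166 to 0.240 and -0.010 to 0.082 in that order, and -0.104 to -0.020 for Pcdha. With the replicate block, 0 members and 1333 of all peaks were called. Whether the replicate numbers pair animals could not be decided from correlations of deviations from the mean of each group and batch. With 2 animals per group in batch 1, its 2 same-numbered correlations are equal by construction, at -0.451. In batch 2 same-numbered animals correlated at 0.0137 to 0.105. Of 10 animals, 5 correlated best with their own number, all of them in batch 2. Depth limits the narrow peaks most.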
